A study of Arabidopsis thaliana with 12 samples.

Results

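The response of Arabidopsis seedlings without arginyl transferases to the bacterial peptide flg22 was read from 6 of the 12 RNA-seq libraries in the series, 3 from mock-treated and 3 from flg22-treated ate1-2 ate2-1 double mutants, here called a1a2. The libraries were taken by the genotype and treatment in their labels, with no measured value used. The mutant is in the Col-0 background, and the other 6 libraries are wild-type Col-0 under the same treatments. All seedlings were 10 days old, had been moved from agar to liquid medium the day before, and received 1 µM flg22, or water as the mock treatment, for 1 h in continuous light. Each library holds polyA RNA from a pool of whole seedlings, and the 3 libraries of a group are labelled as biological replicates. A single combination of mutant alleles stands for the loss of the enzymes, all organs are mixed, and 1 time point was sampled. In such bulk samples a change in the number of cells of a type and a change in RNA per cell cannot be told apart.

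flg22 is a stretch of bacterial flagellin that plants recognise as foreign. The receptor kinase FLS2 binds it together with the co-receptor BAK1, and the complex activates cytoplasmic kinases, calcium entry, the NADPH oxidase RBOHD and MAP kinase cascades, after which the cell switches on defence genes, a programme known as pattern-triggered immunity, and growth is held back. Arginyl transferases add arginine to the N terminus of certain proteins, which are then broken down through the Arg/N-degron pathway. Its best known plant targets are the group VII ERF transcription factors that turn on the response to low oxygen.

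The 6 a1a2 libraries held 21468307 to 22433556 counts each. Levels are in CPM (counts of the gene relative to the library's total, which edgeR had scaled by its TMM method). CPM do not take gene length into account, so they are compared between libraries and not between genes. The first principal component of the 6 libraries carried 79.6% of their variance and separated the treatments, with mock libraries at 68 to 86.8 and flg22 libraries at −87 to −62.6. The second component carried 10.9% and followed the replicate number, with the replicate 3 libraries at −35 and −39.8 and the replicate 1 libraries at 36 and 25.8 for mock and flg22, respectively. Of 20439 genes tested, 2835 were higher after flg22, which is 13.9% of those tested, and 1491 were lower, which is 7.29%. These differentially expressed genes (DEGs) had an adjusted p under 0.05 in edgeR's quasi-likelihood test, with Benjamini-Hochberg adjustment over all tested genes, and a change of at least 1.5-fold. The fit behind these calls did not pair libraries by replicate number. With a replicate block, which does, the counts were 3159 higher and 1915 lower. Over all tested genes, the 3 flg22 libraries lay above the 3 mock libraries without overlap in 4661 (22.8%). They lay below them without overlap in 3905 (19.1%), so a lack of overlap alone is common. The balance of the directions depends on the scaling. With library size alone in place of TMM, the median of all genes moved from −0.002 to −0.256 on the log2 scale, and the counts became 2207 higher and 3337 lower, so falls are to be read relative to the median gene.

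Both mutated genes had few counts in every a1a2 library. ATE1 (AT5G05700) stood at 2.72, 2.89 and 2.19 CPM in mock and 2.77, 4.22 and 2.47 CPM after flg22, beside means of 22.4 and 24.7 CPM in Col-0. ATE2 (AT3G11240) stood at 0.513, 0.263 and 0.481 CPM in mock and 0.202, 0.417 and 0.148 CPM after flg22, beside Col-0 means of 6.42 and 5.24 CPM. Both transcripts were low in all 6 a1a2 libraries, and the treatments overlapped for both genes. Neither passed the test for flg22 in the mutant, with log2 fold changes of 0.27 ± 0.20 (SE, adjusted p = 0.377) for ATE1 and −0.72 ± 0.39 (adjusted p = 0.221) for ATE2.

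Promoter sequences of 6 genes from the immune and growth programmes are shown to set the sequence beside the values that follow. Each run is the 250 bases before the RefSeq annotated start in the TAIR10.1 assembly, 5′ to 3′ on the strand of the gene. Capitals mark the W-box, the element that WRKY transcription factors bind, searched as TTGACC or TTGACT on both strands, so that a match on the opposite strand reads GGTCAA or AGTCAA. These motif letters do not overlap the other motifs counted.
PROPEP3 (chr5:25939312-25939561, + strand, 4 matches): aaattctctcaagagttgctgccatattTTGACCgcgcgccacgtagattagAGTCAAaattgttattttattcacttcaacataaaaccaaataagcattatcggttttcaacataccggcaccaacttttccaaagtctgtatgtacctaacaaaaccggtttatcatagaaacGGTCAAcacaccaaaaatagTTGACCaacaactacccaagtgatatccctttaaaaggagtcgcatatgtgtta
WRKY30 (chr5:8154711-8154960, − strand, 3 matches): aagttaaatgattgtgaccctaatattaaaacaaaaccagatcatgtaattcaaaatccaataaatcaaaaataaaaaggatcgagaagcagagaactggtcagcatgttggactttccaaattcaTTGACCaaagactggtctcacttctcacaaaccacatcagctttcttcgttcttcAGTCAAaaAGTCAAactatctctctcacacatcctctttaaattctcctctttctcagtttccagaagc
WRKY33 (chr2:16107985-16108234, + strand, 2 matches): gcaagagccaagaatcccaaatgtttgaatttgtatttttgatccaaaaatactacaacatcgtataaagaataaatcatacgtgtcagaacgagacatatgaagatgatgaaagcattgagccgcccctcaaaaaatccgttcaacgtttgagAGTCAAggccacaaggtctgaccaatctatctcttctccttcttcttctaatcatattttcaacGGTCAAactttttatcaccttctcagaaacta
CYP81F2 (chr5:23187590-23187839, + strand, 2 matches): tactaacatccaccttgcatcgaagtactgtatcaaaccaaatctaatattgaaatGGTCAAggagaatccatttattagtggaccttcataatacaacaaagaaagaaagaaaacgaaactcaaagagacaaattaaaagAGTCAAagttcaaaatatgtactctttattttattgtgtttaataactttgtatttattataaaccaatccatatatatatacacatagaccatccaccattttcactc
PER4 (chr1:4975706-4975955, − strand, 0 matches): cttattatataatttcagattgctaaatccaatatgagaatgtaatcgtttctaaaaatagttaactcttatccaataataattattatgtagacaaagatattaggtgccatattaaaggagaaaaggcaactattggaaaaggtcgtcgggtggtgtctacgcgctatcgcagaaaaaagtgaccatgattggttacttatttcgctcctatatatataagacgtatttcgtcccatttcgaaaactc
EXPA8 (chr2:16950706-16950955, − strand, 2 matches): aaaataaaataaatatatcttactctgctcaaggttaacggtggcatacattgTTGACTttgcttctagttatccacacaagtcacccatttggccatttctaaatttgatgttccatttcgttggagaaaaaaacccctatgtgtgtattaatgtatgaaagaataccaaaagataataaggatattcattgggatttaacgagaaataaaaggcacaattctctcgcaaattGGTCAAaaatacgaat

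PROPEP3, WRKY30, WRKY33, CYP81F2 and PER4 all rose strongly after flg22 and EXPA8 fell, so the W-box was found before genes of both directions and was missing from the window of a gene that rose. Of the 20438 promoters read, 28.8% held a W-box, against 45.3% (1285 of 2835) of the DEGs that were higher, 22.1% (330 of 1491) of those that were lower and 26.5% of the genes not called. Among the classical early flg22 markers 13 of 18 promoters held it. The rapid stress response element CGCGTT was in 6.21% of the promoters of higher DEGs, 1.27% of those of lower DEGs and 2.81% of all. The GCC-box GCCGCC, bound by ERF factors, was in 2.4%, 1.01% and 1.92%, and the G-box CACGTG, bound by bHLH and bZIP factors, in 6.91%, 6.84% and 7.16%. The shares are a description of the letters in these windows, and binding was not measured.

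**Figure D1:**
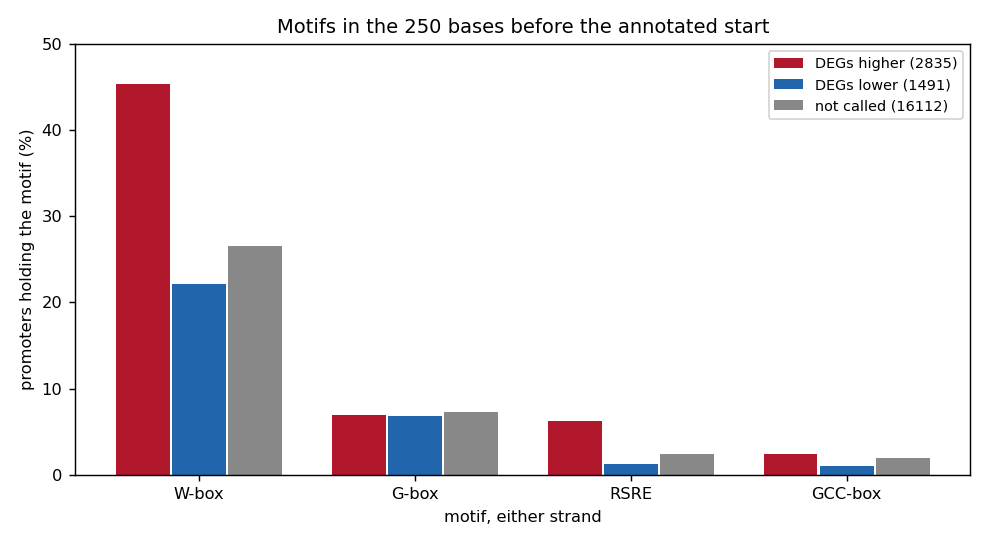
Share of promoters (percent, y axis) that hold each of 4 motifs (x axis) on either strand in the 250 bases before the annotated start, for the 2835 DEGs that were higher after flg22 in a1a2, the 1491 that were lower and the 16112 genes not called. The W-box stands at 45.3% in the higher DEGs and 22.1% in the lower ones, whereas the G-box lies near 7% in each class.

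The genes with the largest fitted rises were silent or nearly so in mock-treated a1a2. ERF105 (AT5G51190), an ERF transcription factor, had 0 CPM in all 3 mock libraries and 40.6, 90.3 and 134 CPM after flg22 (adjusted p = 0.000417). AT2G22880, which codes for a VQ motif protein, went from 0 CPM in each mock library to 35.7, 28.5 and 24.3 CPM (adjusted p = 5.14e-06). The floor of 3 counts per library makes these rises at least 672-fold and at least 225-fold. BGLU27 (AT3G60120), a member of the beta-glucosidase family, was at 0, 0.0438 and 0 CPM in mock and at 40.8, 37.6 and 14.9 CPM after flg22, at least 237-fold higher. The other 5 of the 8 largest rises were at 0 in each mock library and at 0.789 to 12.7 CPM after flg22. They are AT1G06135, AT2G31345 and AT3G21305, which carry no description of function in RefSeq, AT3G43250, annotated as a coiled-coil protein, and AT3G19615, annotated as a xylosidase. AT3G21305 ran from 0.789 to 10.3 CPM in the flg22 libraries. Its adjusted p of 0.0403 became 0.105 and 0.0708 without flg22 replicate 1 or 2, and 0.0828, 0.0829 and 0.08 without mock replicate 1, 2 or 3.

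The largest falls included regulators and metabolic genes. CIB1 (AT4G34530), a bHLH factor that acts with cryptochrome in flowering, stood at 5.72, 3.63 and 3.50 CPM in mock and at 0, 0.156 and 0 CPM after flg22, at least 27.4-fold lower (adjusted p = 0.00127). AT5G20790, without a description, fell from 8.72, 25.8 and 16.5 CPM to 0.554, 1.46 and 1.53 CPM. MYB29 (AT5G07690), an activator of aliphatic glucosinolate synthesis, fell from 5.41, 7.40 and 16.2 CPM to 0.454, 0.626 and 2.32 CPM, a log2 fold change of −3.08 ± 0.66 (adjusted p = 0.00468). A lack of overlap between treatments was required for a gene to be listed here, so it is not a result. The mock libraries of AT5G20790 and MYB29 were themselves spread. The remaining falls were those of AT4G30250, a P-loop NTPase (log2 fold change −4.07), the glucosyltransferase gene UGT73C1 (−3.32), AT3G09450 (−3.32), the transporter-like gene AT5G62730 (−3.26) and the cytochrome P450 gene CYP96A9, whose flg22 libraries held at most 3 counts, at least 13.9-fold lower.

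The listed immune and growth genes moved in opposite directions on balance. Over 15 lists of immune genes, 189 of 357 tested members (52.9%) were higher DEGs and 16 (4.48%) were lower, with a median log2 fold change of 0.83. Over the lists of growth genes, 43 of 592 (7.26%) were higher and 88 (14.9%) were lower, with a median of −0.14. Counted among the growth lists were aquaporins, nutrient uptake genes and 19 aliphatic glucosinolate genes, of which 5 were lower. The median of all tested genes was −0.002 and the shares called were 13.9% and 7.29%, so both the rises of immune genes and the falls of growth genes were above these backgrounds. The lists were chosen with earlier results of these data known, and the immune lists hold genes in use as markers of flg22. The excess over the backgrounds is therefore a description of these lists and not a test. With library size alone the counts were 167 and 29 for the immune genes, and 37 and 161 for the growth genes. Of all tested genes, 2207 were higher and 3337 lower under that setting. With the replicate block the counts were 194 and 23 for the immune genes, and 57 and 122 for the growth genes. Under the block, 3159 of all tested genes were higher and 1915 lower. Col-0 gave 199 and 15 for the immune genes, and 45 and 83 for the growth genes, beside Col-0 backgrounds of 13.9% higher and 7.07% lower.

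**Figure D2:**
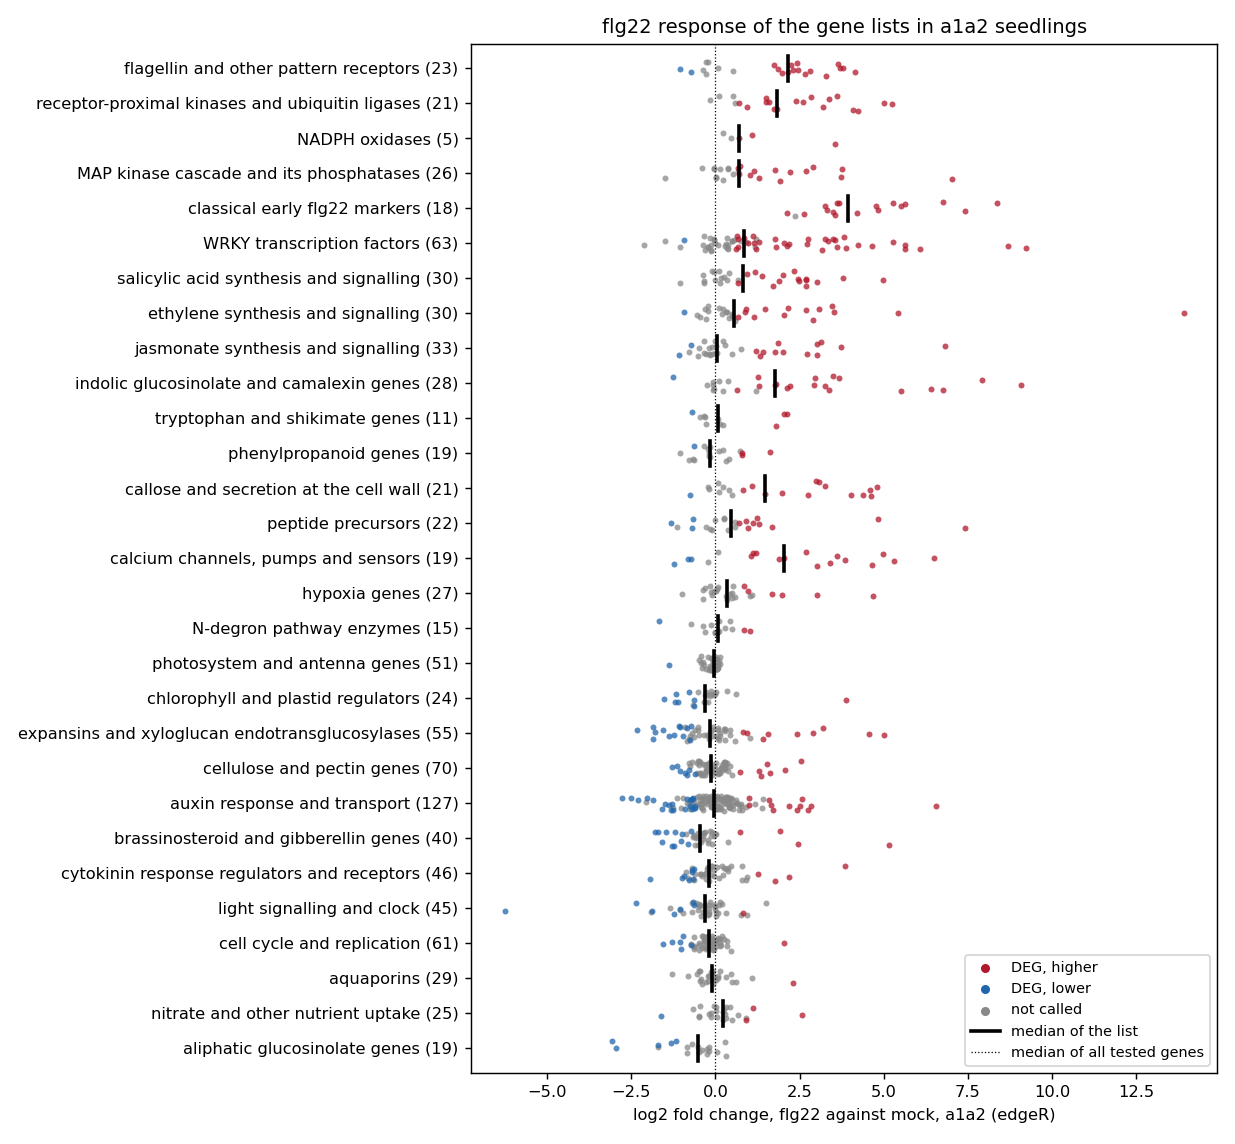
Log2 fold change of flg22 against mock in a1a2 (x axis) for every tested member of each gene list (y axis, with the number tested), coloured as higher DEG, lower DEG or not called, with a bar at the median of the list and a dotted line at the median of all tested genes. The early flg22 markers have the highest median, at 3.94, and the photosystem and antenna genes lie close to 0. Fitted values of genes without counts in mock, such as ERF105 at the far right, depend on the prior count of the fit and are not sizes of change.

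At the cell surface, both parts of the flagellin receptor rose. FLS2 (AT5G46330), the flagellin receptor, stood at 34.5, 25.1 and 9.97 CPM in mock and at 97.2, 94.5 and 43.1 CPM after flg22. BAK1 (AT4G33430), its co-receptor, went from 68.0, 55.9 and 50.1 CPM to 329, 311 and 224 CPM. Neither gene overlapped between treatments, but the libraries of FLS2 were spread within each treatment, with replicate 3 lowest in both. Its log2 fold change was 1.75 ± 0.49 (adjusted p = 0.0197), and the adjusted p became 0.0757 or 0.0624 without flg22 replicate 1 or 2 and 0.053 without mock replicate 2 or 3. BAK1 rose by 2.31 ± 0.20 (adjusted p = 4e-06). FLS2, BAK1 and the kinase gene BIK1 were chosen for naming after their values were seen.

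Of 23 pattern receptor genes tested, 15 were higher and 2 lower, with a median log2 fold change of 2.14, and 1 was lower without mock replicate 3. The largest rises were those of the chitin receptor kinases LYK5 (AT2G33580) and LYK4, the kinase SOBIR1 that pairs with receptor-like proteins, and SERK4, a close relative of BAK1. LYK5 stood at 4.5, 4.16 and 3.85 CPM in mock and 70.9, 68.1 and 81.4 CPM after flg22. The log2 fold changes were 4.14 for LYK5, 3.78 for SOBIR1, 3.69 for SERK4 and 3.64 for LYK4, all in a direction shared by most of the list. NIK1, a leucine-rich repeat kinase known from antiviral defence, fell from 22.2, 23.5 and 27.0 CPM to 9.98, 10.7 and 14.4 CPM (log2 fold change −1.05 ± 0.16, adjusted p = 0.000352). FERONIA (FER), the receptor of RALF peptides, was measured at 207, 184 and 152 CPM in mock and 290.5, 272 and 221 CPM after flg22. That difference of 0.53 ± 0.14 in log2 (adjusted p = 0.0149) is under the 1.5-fold threshold, although the treatments did not overlap.

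Downstream of the receptors, 17 of 21 proximal kinase and ubiquitin ligase genes were higher and 0 lower, with a median of 1.83. BIK1 (AT2G39660), the cytoplasmic kinase that FLS2 and BAK1 phosphorylate, rose from 21.8, 20.7 and 14.4 CPM to 186, 190.3 and 141 CPM. Both negative regulators and activators were among these genes. PUB22, PUB23 and PUB24, ubiquitin ligases that damp pattern-triggered immunity, rose by 4.24, 5.02 and 5.25 in log2, and PUB23 (AT2G35930) went from 11.7, 15.6 and 18.0 CPM to 525, 528 and 414 CPM. CPK28 (AT5G66210), a calcium-dependent kinase that promotes the turnover of BIK1, went from 27.6, 30.4 and 28.8 CPM to 474, 531 and 479 CPM. Its libraries lay close together within each treatment, and its log2 fold change was 4.10 ± 0.11 (adjusted p = 4.88e-09).

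Among the NADPH oxidases, which make the apoplastic oxidative burst, RBOHD stood out. RBOHD (AT5G47910), the main enzyme of the flg22 burst, was at 61.0, 65.9 and 73.9 CPM in mock and at 774, 868 and 732 CPM after flg22, a log2 fold change of 3.56 ± 0.17 (adjusted p = 3.79e-08). RBOHC, known for its role in root hairs, rose from 10.9, 10.9 and 12.1 CPM to 26.5, 19.7 and 25.2 CPM. RBOHA rose from 2.45, 2.45 and 2.75 CPM to 3.93, 3.96 and 4.54 CPM (adjusted p = 0.0442), without overlap. That call was lost when any 1 of the 6 libraries was left out. Its adjusted p was then 0.0972, 0.0809 and 0.116 without flg22 replicate 1, 2 or 3, and 0.128, 0.115 and 0.0761 without mock replicate 1, 2 or 3, and it was 0.143 with library size alone. RBOHF was at 21.9, 22.9 and 22.9 CPM in mock and at 29.9, 27.2 and 35.2 CPM after flg22, under the fold threshold. RBOHB did not pass the test, at 9.32, 10.2 and 11.6 CPM in mock and 11.8, 9.33 and 14.9 CPM after flg22. Of the 5 genes tested 3 were therefore higher and 0 lower.

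In the MAP kinase cascade, 14 of 26 genes were higher and 0 lower, with a median of 0.68. MPK11 (AT1G01560), a kinase activated by flg22, rose from 1.22, 0.438 and 0.656 CPM to 137, 98.1 and 74.9 CPM, a log2 fold change of 7.03 ± 0.41 (adjusted p = 1.97e-07). MPK3 (AT3G45640), one of the main kinases of the cascade, rose from 79.3, 76.1 and 63.8 CPM to 902, 1041 and 1056 CPM, and MKK4, which acts upstream of it, rose by 3.74 in log2. MPK6, the partner of MPK3, was at 69.9, 57.0 and 60.2 CPM in mock and at 85.1, 81.6 and 73.4 CPM after flg22. Its difference of 0.36 ± 0.11 in log2 was under the fold threshold. MPK5 rose by 2.91.

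Calcium genes changed in both directions. Of 19 channel, pump and sensor genes, 14 were higher and 3 lower, with a median of 2.02. The calmodulin-like gene CML37 (AT5G42380) rose from 0.237, 0.525 and 0.350 CPM to 30.4, 31.2 and 40.0 CPM. The cyclic nucleotide-gated channel gene CNGC19 (AT3G17690) rose from 0.987, 0.569 and 0.787 CPM to 25.5, 31.0 and 37.4 CPM, a log2 fold change of 5.31 ± 0.23 (adjusted p = 2.87e-08). The calmodulin-like genes TCH3 and CML42 rose by 4.98 and 4.65. Other members of the CNGC family, CNGC2 (AT5G15410) and CNGC4, subunits of a calcium channel in immune signalling, fell. CNGC2 went from 135, 111 and 117 CPM to 50.5, 49.9 and 52.7 CPM (log2 fold change −1.25 ± 0.10, adjusted p = 2.31e-06), and CNGC4 from 17.1, 19.3 and 25.5 CPM to 10.7, 10.7 and 14.1 CPM. The annexin gene ANN4 was the other member called lower, from 23.2, 31.8 and 35.9 CPM to 13.8, 18.9 and 22 CPM.

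Of 18 genes used as classical early markers of the flg22 response, 17 were higher and 0 lower, with a median of 3.94. PER4 (AT1G14540), an apoplastic peroxidase, rose from 0.987, 2.23 and 1.01 CPM to 532, 477 and 397 CPM (log2 fold change 8.38 ± 0.52, adjusted p = 3.03e-07). PROPEP3, the precursor of a danger peptide, rose from 0.316, 0.744 and 0.568 CPM to 114, 83.3 and 79.5 CPM, and CYP81F2, a cytochrome P450 of indolic glucosinolate synthesis, from 12.7, 20.0 and 7.43 CPM to 1609, 1724 and 1041 CPM. No library of these genes overlapped between treatments. FRK1 (AT2G19190), the kinase gene most used as a reporter of this response, was the member not called. It stood at 9.95, 0.263 and 0.656 CPM in mock and at 37.2, 13.9 and 5.67 CPM after flg22, so the treatments overlapped through mock replicate 1, which was also high for several other genes below. Each flg22 library lay above the mock library of the same number. The log2 fold change was 2.36 ± 1.24 (adjusted p = 0.199), it was 2.79 (adjusted p = 0.000885) in the fit with the replicate block, which compares libraries of the same number, and it was 5.31 (adjusted p = 0.0291) without mock replicate 1.

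**Figure D3:**
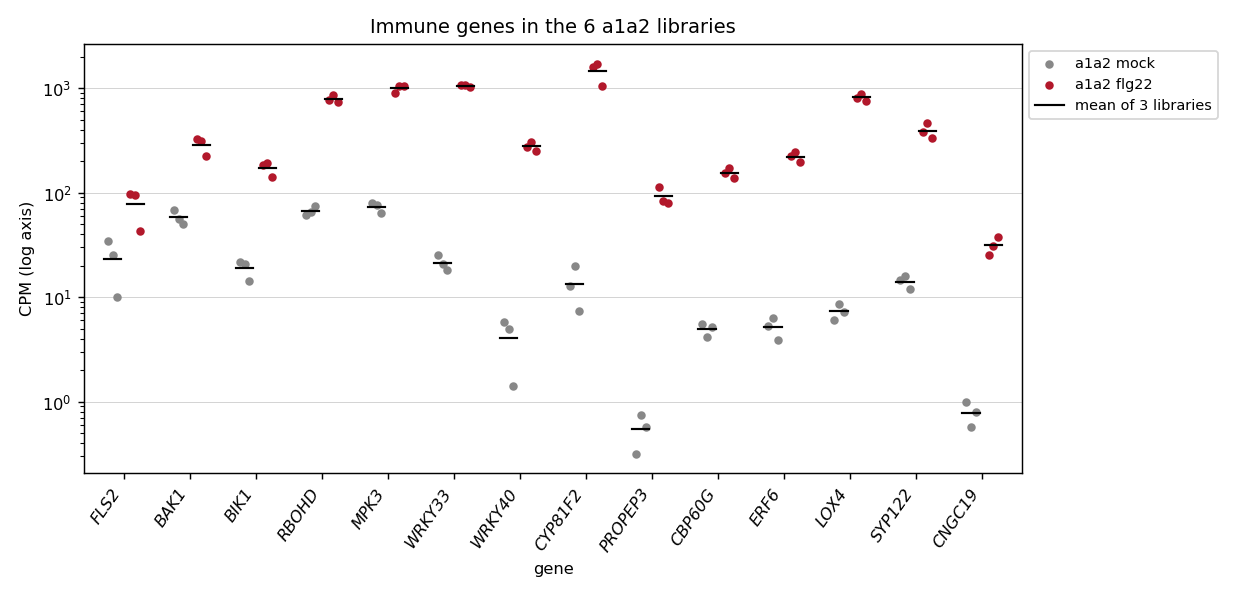
CPM (y axis, log scale) of 14 immune genes (x axis) in each of the 3 mock and 3 flg22 libraries of a1a2, with a bar at the mean of 3 libraries. All of these genes are DEGs that were higher, and the treatments do not overlap for any of them. FLS2 has the widest spread among the receptor genes, from 9.97 to 34.5 CPM in mock, and CYP81F2 reaches 1724 CPM after flg22.

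Of 63 WRKY transcription factors tested, 33 (52.4%) were higher and 1 lower, with a median of 0.84, and 2 were lower with the replicate block or without replicate 3 of flg22 or of mock. WRKY33 (AT2G38470), a regulator of camalexin synthesis and a substrate of MPK3 and MPK6, rose from 25.3, 20.7 and 18.2 CPM to 1074, 1072 and 1025 CPM, a log2 fold change of 5.63 ± 0.22 (adjusted p = 1.62e-08). WRKY30 (AT5G24110) rose from 0.395, 1.09 and 0.219 CPM to 339, 361 and 323 CPM, and WRKY40 (AT1G80840), which acts as a repressor, from 5.84, 4.90 and 1.40 CPM to 274, 309 and 249.5 CPM. WRKY41 was at 0.0395, 0 and 0 CPM in mock and at 13.2, 4.95 and 6.27 CPM after flg22, at least 61.8-fold higher, and WRKY55 rose by 5.63 in log2. WRKY3 was the only member called lower, at 34.4, 37.5 and 24.0 CPM in mock and 19.2, 17.3 and 13.3 CPM after flg22 (log2 fold change −0.95 ± 0.22, adjusted p = 0.00769).

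Hormone genes are given by branch. For salicylic acid, 16 of 30 genes were higher and 0 lower, with a median of 0.81. CBP60G (AT5G26920) and SARD1, transcription factors that switch on salicylic acid synthesis, rose from 5.53, 4.12 and 5.20 CPM to 156, 171 and 139 CPM, and from 7.26, 5.52 and 4.94 CPM to 65.6, 101 and 81.7 CPM. NDR1 and EDS1, which act in resistance signalling, rose by 3.02 and 2.7 in log2. ICS1 (AT1G74710), the isochorismate synthase that those factors regulate, rose from 24.2, 22.2 and 20.5 CPM to 44.6, 44.5 and 38.6 CPM, 0.93 ± 0.12 in log2 (adjusted p = 0.000149), and was chosen after its values were seen. PR1 (AT2G14610), the pathogenesis-related gene that marks a later salicylic acid response, and FMO1, which makes the systemic signal N-hydroxypipecolic acid, were also looked at after the fact and were not called. PR1 was at 6.87, 4.33 and 11.8 CPM in mock and 3.63, 5.37 and 2.02 CPM after flg22 (log2 fold change −1.06 ± 0.37, adjusted p = 0.0528), and passed with the replicate block (adjusted p = 0.0488), in DESeq2 (0.0214) and without replicate 2 of flg22 (0.0249) or of mock (0.0169). With it called, 1 of the 30 genes was lower.

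For ethylene, 14 of 30 genes were higher and 1 lower, with a median of 0.54. ERF6 (AT4G17490), a transcription factor phosphorylated by MPK3 and MPK6, rose from 5.33, 6.26 and 3.85 CPM to 222, 242 and 198 CPM, a log2 fold change of 5.42 ± 0.23 (adjusted p = 2.62e-08). ERF5, its close relative, rose by 3.46. ACS7 (AT4G26200), an ACC synthase of ethylene production, stood at 9.51, 1.05 and 1.22 CPM in mock and at 44.4, 44.5 and 49.0 CPM after flg22, again with mock replicate 1 above the other mock libraries. ACS10, named as an ACC synthase but known as an aminotransferase, fell from 42.1, 46.6 and 54.5 CPM to 21.7, 24.2 and 29.2 CPM.

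For jasmonate, 12 of 33 genes (36.4%) were higher and 2 lower (1 without flg22 replicate 3 or mock replicate 2), and the median of 0.04 lay close to that of all genes. The rises were large where they occurred. LOX4 (AT1G72520), a lipoxygenase, rose from 6.04, 8.67 and 7.21 CPM to 812, 883 and 761 CPM, a log2 fold change of 6.81 ± 0.19 (adjusted p = 6.01e-09). LOX3 and the allene oxide cyclase AOC3, which act in jasmonate synthesis, rose by 3.03 and 3.15. JAZ1 (AT1G19180), a repressor of jasmonate signalling, rose from 25.4, 28.8 and 26.7 CPM to 388, 388 and 291 CPM. Of 12 JAZ genes, 5 were higher and 1 was lower. MYC4, a transcription factor that JAZ proteins repress, fell from 16.8, 24.1 and 30.4 CPM to 10.8, 10.4 and 12.1 CPM (log2 fold change −1.09 ± 0.23, adjusted p = 0.00415). LOX2, the lipoxygenase of wound-induced jasmonate in leaves, was at 270.3, 394 and 373 CPM in mock and at 233, 253 and 241 CPM after flg22, without overlap and without passing the test (adjusted p = 0.221).

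Most genes of indolic antimicrobials rose. Of 28 indolic glucosinolate and camalexin genes, 18 (64.3%) were higher and 1 lower, with a median of 1.78. The summed level of the list was 3170 to 3400 CPM over the mock libraries and 13300 to 19100 CPM over the flg22 libraries. CYP82C3 (AT4G31950), a cytochrome P450, rose from 0.0395, 0.920 and 0.0437 CPM to 233, 183 and 128 CPM, and CYP71A12, which makes indole cyanogenic precursors, from 0.908, 1.36 and 0.306 CPM to 97.1, 84.8 and 38.0 CPM. IGMT2 (AT1G21120), a methyltransferase that modifies indolic glucosinolates, rose from 5.33, 7.97 and 2.49 CPM to 1433, 1386 and 974 CPM, though it has near-identical neighbours among which reads may have been divided. MYB34, an activator of indolic glucosinolate synthesis, was the member that fell, from 19.3, 29.1 and 34.3 CPM to 8.11, 10.7 and 15.5 CPM (log2 fold change −1.26 ± 0.29, adjusted p = 0.00637). GSTF9, a glutathione transferase with high CPM, was at 663, 674 and 719 CPM in mock and 605, 634 and 712 CPM after flg22.

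At the cell wall, 13 of 21 callose and secretion genes were higher and 1 lower, with a median of 1.48. SYP122 (AT3G52400), a plasma membrane syntaxin, rose from 14.5, 15.8 and 12 CPM to 382, 462 and 336 CPM, a log2 fold change of 4.80 ± 0.18 (adjusted p = 1.62e-08). The powdery mildew genes MLO6 and MLO12 rose by 4.64 and 4.6, and all 4 EXO70 exocyst genes of the list were higher, with EXO70B2 at 4.38. PMR4 (AT4G03550), the callose synthase of pathogen-induced papillae, chosen after its values were seen, rose from 86.2, 68.1 and 74.7 CPM to 147, 145 and 116 CPM (adjusted p = 0.000636). Its log2 fold change of 0.83 became 0.57 with library size alone, under the threshold of 1.5-fold. GSL1, another glucan synthase, fell from 30.5, 22.2 and 25.8 CPM to 17, 14.8 and 14.4 CPM.

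Among 22 peptide precursor genes, 9 were higher and 3 lower, with a median of 0.46, and 1 was lower without mock replicate 3. PROPEP2, a relative of PROPEP3, rose from 0.0395, 0.350 and 0.175 CPM to 7.26, 5.27 and 3.55 CPM. PSK4, the precursor of a sulfated growth peptide, rose by 1.68. RALF23 (AT3G16570), the precursor of a peptide that acts through FERONIA to weaken immune receptor complexes, fell from 66.7, 66.6 and 80.6 CPM to 25.9, 28.2 and 31.8 CPM, a log2 fold change of −1.32 ± 0.13 (adjusted p = 1.19e-05).

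On the growth side, 11 of 40 brassinosteroid and gibberellin genes (27.5%) were lower and 4 were higher, with a median of −0.47. Of all tested genes, 7.29% were lower. The lower count was 18 with library size alone, beside 3337 of all tested genes under that setting. BEE2 (AT4G36540) and HBI1, bHLH factors that promote cell elongation, fell from 32.9, 40.5 and 38.9 CPM to 8.97, 11.4 and 11.9 CPM, and from 54.5, 72.9 and 47.4 CPM to 16.8, 20.8 and 15.5 CPM. BR6OX2, an enzyme of the last steps of brassinosteroid synthesis, fell from 17.3, 17.9 and 21.5 CPM to 4.43, 5.79 and 8.39 CPM. The genes that rose were GA2OX6 and GA2OX2, gibberellin oxidases that inactivate the hormone, GID1B, a gibberellin receptor, and BIN2, a kinase that restrains brassinosteroid signalling. GA2OX6 (AT1G02400) rose from 3.24, 5.65 and 4.63 CPM to 189.8, 176 and 121 CPM, a log2 fold change of 5.17 ± 0.32 (adjusted p = 3.05e-07). BIN2 rose from 173, 155 and 151 CPM to 287, 270.2 and 235 CPM, and its log2 fold change of 0.73 became 0.47, under the threshold, with library size alone. GASA1, a gibberellin-regulated gene, was at 485, 409 and 403 CPM in mock and 396, 378 and 343 CPM after flg22 and did not pass the test.

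Expansins and xyloglucan endotransglucosylases, which loosen and remodel the wall, changed in both directions. Of 55 tested, 9 were higher and 13 (23.6%) lower, with a median of −0.17. The expansins account for part of the falls, with 6 of 18 EXPA genes lower and 0 higher, whereas 8 of 30 XTH genes were higher and 6 lower. EXPA8 (AT2G40610) fell from 19.7, 26.9 and 16.4 CPM to 4.18, 4.64 and 3.65 CPM, a log2 fold change of −2.34 ± 0.31 (adjusted p = 0.00014). EXPA1 fell from 139.9, 185 and 174 CPM to 33.0, 42.4 and 62.2 CPM and XTH6 from 45.8, 61.4 and 99.8 CPM to 11.3, 18.9 and 26.8 CPM. XTH18 (AT4G30280) rose from 34.0, 28.0 and 24.0 CPM to 953, 1073 and 764 CPM, and XTH22 (AT5G57560), the touch-induced gene TCH4, rose from 34.7, 26 and 19.6 CPM to 441, 728 and 726 CPM. XTH23 and XTH19 rose by 3.18 and 2.89. XTH4 was at 631, 615 and 458 CPM in mock and at 543, 574 and 466 CPM after flg22, with overlap.

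**Figure D4:**
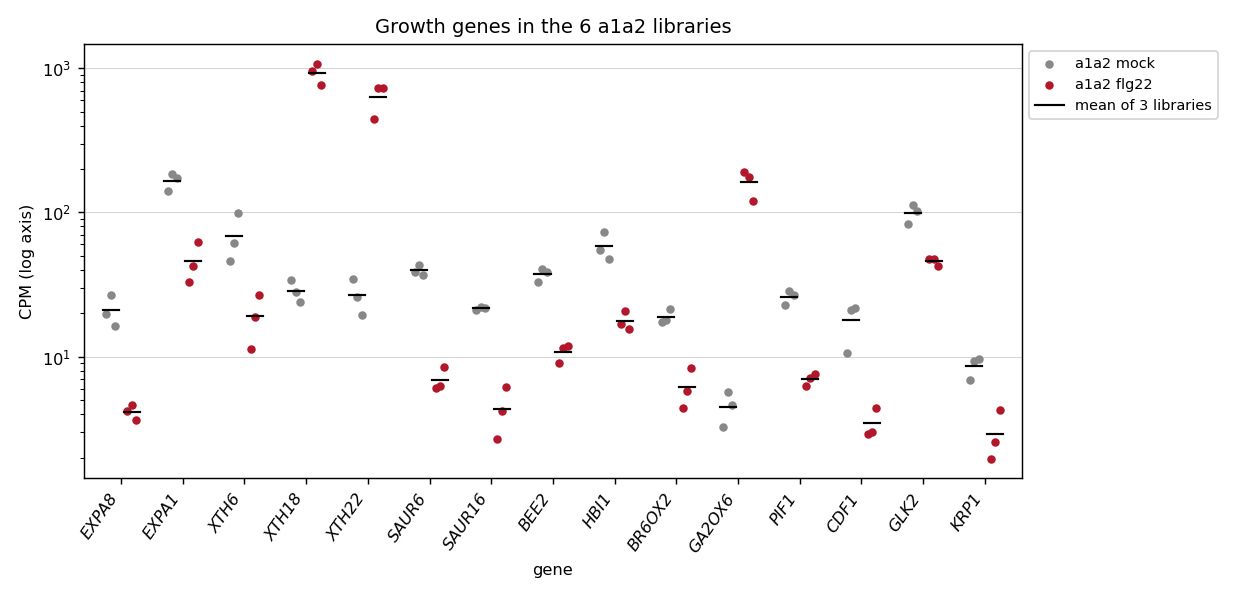
CPM (y axis, log scale) of 15 growth genes (x axis) in each of the 3 mock and 3 flg22 libraries of a1a2, with a bar at the mean of 3 libraries. All of these genes are DEGs. XTH18, XTH22 and GA2OX6 lie higher after flg22 and the other 12 genes lie lower, without overlap of the treatments.

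Of 70 cellulose and pectin genes, 7 were higher and 7 lower, 10% each, beside 13.9% and 7.29% of all tested genes. Their median was −0.13, and 19 were lower with library size alone, beside 3337 of all tested genes under that setting. CESA1, a cellulose synthase of the primary wall, was at 421, 355 and 400.4 CPM in mock and at 350.1, 324 and 360.4 CPM after flg22 (adjusted p = 0.223), and 0 of 9 CESA genes was called. FLA4, an arabinogalactan protein needed for root growth, fell from 33.2, 28.7 and 39.1 CPM to 12.2, 11.7 and 17.2 CPM. PME41, a pectin methylesterase, rose from 75.1, 19.6 and 19.9 CPM to 247, 232 and 185 CPM. Its mock replicate 1 was again the highest mock library.

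Auxin genes changed in both directions, with a median of −0.03. Of 127 tested, 12 (9.45%) were higher and 22 (17.3%) lower. With library size alone 36 were lower, beside 3337 of all tested genes under that setting. SAUR genes, small auxin-induced genes of elongation, were split, with 6 of 59 higher and 8 lower, and several lie in tandem arrays of similar sequence, which leaves their separate levels uncertain. SAUR6 (AT2G21210) fell from 38.8, 43.1 and 37.0 CPM to 6.10, 6.31 and 8.44 CPM, a log2 fold change of −2.51 ± 0.24 (adjusted p = 9.87e-06). SAUR16 fell from 21.0, 22.2 and 21.6 CPM to 2.67, 4.17 and 6.17 CPM, and SAUR3 from 5.72, 4.6 and 3.32 CPM to 0.605, 0.521 and 0.839 CPM. SAUR48 rose from 0.0395, 0.0438 and 0 CPM to 1.56, 3.65 and 4.39 CPM, at least 24.4-fold. GH3.2 (AT4G37390), an enzyme that conjugates and so inactivates auxin, rose from 15.7, 9.68 and 7.96 CPM to 127, 80 and 31.4 CPM, and the Aux/IAA repressor gene IAA10 rose by 2.74 in log2. Of 7 PIN auxin efflux carrier genes 3 were lower and 0 higher, as were 5 of 12 genes that carry an ARF symbol. These families were chosen after their values were seen. ARF2, a repressor of auxin response with high CPM, was at 177, 176 and 173 CPM in mock and at 204 CPM or more after flg22, under the fold threshold.

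For cytokinin, 4 of 46 genes were higher and 8 (17.4%) lower, with a median of −0.19. The lower count was 5 without flg22 replicate 1 or mock replicate 2, and 3 without flg22 replicate 2 or mock replicate 3. The rises were mainly in enzymes that break the hormone down, the CKX genes, of which 3 of 6 were higher and 1 was lower. CKX4 (AT4G29740), a cytokinin oxidase, rose from 11.1, 16.5 and 14.7 CPM to 151, 289 and 167 CPM, a log2 fold change of 3.84 ± 0.36 (adjusted p = 8.64e-06). CKX5 and CKX6 rose by 1.78 and 1.27, and LOG5, an enzyme of cytokinin activation, rose by 2.17. ARR14, a response regulator, fell from 5.80, 6.09 and 6.25 CPM to 1.46, 1.51 and 1.68 CPM, a log2 fold change of −1.96 ± 0.14 (adjusted p = 1.04e-06).

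Light signalling genes that changed mostly fell, and photosystem genes were rarely called. Of 45 light signalling and clock genes, 1 was higher and 7 (15.6%) lower, with a median of −0.31. The counts were 4 and 13 with the replicate block, beside 3159 higher and 1915 lower of all tested genes. They were 0 and 14 with library size alone, beside 2207 and 3337 of all tested genes. Without flg22 replicate 3 or mock replicate 1, 2 were higher. Of 6 PIF genes, bHLH factors that promote elongation growth, 4 were lower. PIF1 (AT2G20180) fell from 22.7, 28.6 and 26.9 CPM to 6.30, 7.09 and 7.55 CPM, a log2 fold change of −1.90 ± 0.20 (adjusted p = 2.52e-05). PIF4 fell from 58.9, 72.5 and 44.0 CPM to 29.8, 32.9 and 21.3 CPM, and PIF3 from 18.8, 14.1 and 9.36 CPM to 7.66, 6.31 and 3.90 CPM, both chosen after their values were seen. The adjusted p of PIF3, 0.0148, became 0.052 without flg22 replicate 3 and 0.0547 without mock replicate 1. CDF1, a repressor of flowering, fell from 10.7, 21.2 and 21.7 CPM to 2.92, 3.02 and 4.44 CPM. CIB2, a relative of CIB1, rose from 20.2, 18.4 and 17.1 CPM to 37.8, 27.6 and 32.1 CPM, and its log2 fold change of 0.81 became 0.55, under the threshold, with library size alone. CIB1, described above, was the member that fell most.

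Of 24 chlorophyll and plastid regulator genes, 1 was higher and 7 (29.2%) lower, with a median of −0.30. GLK1 and GLK2, the transcription factors that drive chloroplast genes, were chosen after their values were seen. GLK2 (AT5G44190) fell from 83.2, 112 and 103 CPM to 47.9, 47.6 and 42.5 CPM (log2 fold change −1.11 ± 0.25, adjusted p = 0.00632). GLK1 fell from 93.6, 91.3 and 105 CPM to 59.2, 68.1 and 59.6 CPM, and its log2 fold change of −0.63 became −0.57, under the threshold, without mock replicate 3. GATA21, a regulator of greening, fell from 30.6, 36 and 45.6 CPM to 12.5, 16.4 and 20.4 CPM, and SIG4, a plastid sigma factor, fell by 1.19 on the log2 scale. GUN4, a chlorophyll synthesis factor, fell from 94.2, 146 and 204 CPM to 34.0, 50.9 and 69.6 CPM (adjusted p = 0.0389). That adjusted p became 0.123 and 0.102 without flg22 replicate 1 or 2, 0.0776 and 0.127 without mock replicate 2 or 3, and 0.0515 with no filter on low counts. The gene that rose was HEMA2 (AT1G09940), a glutamyl-tRNA reductase of tetrapyrrole synthesis outside the main greening route, from 21.7, 19.4 and 18.7 CPM to 333, 308 and 243 CPM. CRD1, a chlorophyll synthesis enzyme, was at 1609, 2013 and 2101 CPM in mock and at 1357, 1735 and 1537 CPM after flg22.

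Of 51 photosystem and antenna genes, 0 were higher and 1 was lower, with a median of −0.05 and a range of −1.38 to 0.13. RBCS1A, a Rubisco small subunit gene with close copies, was at 18052, 20115 and 22669 CPM in mock and at 17024, 23354 and 19691 CPM after flg22, with overlap. PSBP-2 (AT2G30790), an oxygen-evolving complex gene with few counts, was the member called lower, from 0.987, 1.58 and 1.27 CPM to 0.554, 0.261 and 0.641 CPM (adjusted p = 0.0245). That call was lost without flg22 replicate 2 (adjusted p = 0.0913), mock replicate 2 (0.0864) or mock replicate 3 (0.0561).

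Of 61 cell cycle and replication genes, 1 was higher and 6 (9.84%) lower, with a median of −0.19. Of all tested genes, 7.29% were lower. The lower count was 10 with the replicate block and 17 with library size alone, beside 1915 and 3337 of all tested genes under these settings. Of 10 B-type cyclins and 9 MCM helicase subunits, 0 were called. KRP1 (AT2G23430) and SMR1, which are inhibitors of cyclin-dependent kinases, were among the genes that fell. KRP1 went from 6.91, 9.33 and 9.66 CPM to 1.97, 2.55 and 4.24 CPM and SMR1 from 25.4, 32.9 and 34.9 CPM to 11.5, 13.3 and 13.2 CPM (log2 fold change −1.29 ± 0.15, adjusted p = 5.18e-05). The cyclin gene CYCA1;2 rose from 1.89, 1.36 and 1.18 CPM to 6.20, 6.67 and 5.58 CPM.

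Of 19 aliphatic glucosinolate genes 0 were higher and 5 (26.3%) lower, with a median of −0.53, beside the rise of the indolic list. The lower count was 9 with the replicate block, beside 1915 of all tested genes under that setting. It was 3 without replicate 1 or 2 of flg22 or replicate 2 or 3 of mock. MYB29, given among the largest falls, belongs to this list. AOP1, a dioxygenase gene of the family that modifies side chains, fell from 5.72, 7.18 and 5.55 CPM to 1.51, 1.88 and 2.22 CPM. TGG1, the myrosinase that cleaves glucosinolates, was at 961, 1071 and 1111 CPM in mock and at 1302, 1366 and 1188 CPM after flg22 (adjusted p = 0.161).

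Genes of the low-oxygen response varied between replicates as well as with flg22. Of 27 hypoxia genes, 6 (22.2%) were higher, beside 13.9% of all tested genes, and 0 lower, with a median of 0.35. Their summed level ranged from 818 to 1840 CPM over the mock libraries and from 1690 to 2680 CPM over the flg22 libraries, so the treatments overlapped. The members that rose included STZ, a zinc finger repressor, and CML38, a calmodulin-like protein of RNA granules, which are also stress genes outside low oxygen. STZ (AT1G27730) rose from 7.34, 8.84 and 5.51 CPM to 189, 172 and 198 CPM, and CML38 from 9.59, 5.47 and 1.62 CPM to 39.9, 56.5 and 39.7 CPM. AlaAT1, an alanine aminotransferase of low-oxygen metabolism, rose from 213, 205 and 154 CPM to 847, 859 and 531 CPM, a log2 fold change of 1.97 ± 0.23 (adjusted p = 4.87e-05). LBD41 (AT3G02550), a core low-oxygen gene, rose from 66.3, 32.7 and 20.1 CPM to 172, 133 and 78.3 CPM (adjusted p = 0.0166), and the adjusted p became 0.076 without flg22 replicate 1, 0.0646 without mock replicate 2 and 0.0523 without mock replicate 3.

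ADH1 (AT1G77120), alcohol dehydrogenase, and HB1, a haemoglobin, were chosen after their values were seen, as the best known low-oxygen genes. ADH1 was at 92.3, 39.1 and 20.8 CPM in mock and at 94.1, 29.6 and 30.3 CPM after flg22, a log2 fold change of 0.02 ± 0.57 (adjusted p = 0.988). HB1 was at 129, 60.7 and 39.8 CPM in mock and at 156, 82.0 and 85.3 CPM after flg22 (log2 fold change 0.49 ± 0.39, adjusted p = 0.41), and passed at 1.06 (adjusted p = 0.0364) without mock replicate 1. The replicate 1 libraries of both treatments were the highest for both genes, as they were for LBD41. RAP2.12, a group VII ERF whose protein is a target of the pathway, was at 115, 91.7 and 80.6 CPM in mock and at 115, 98.0 and 92.6 CPM after flg22. Its transcript level did not pass the test, and protein levels are not measured by these libraries.

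The list for the N-degron pathway holds targets as well as enzymes. Of its 15 genes, 2 (13.3%) were higher and 1 (6.67%) lower, with a median of 0.06. These shares are close to the 13.9% and 7.29% of all tested genes. MAP2A (AT2G44180), a methionine aminopeptidase that exposes N-terminal residues, rose from 19.9, 19.4 and 16.5 CPM to 40.3, 41.5 and 31.1 CPM (log2 fold change 1.02 ± 0.14, adjusted p = 0.000186). PRT6, the ubiquitin ligase that recognises arginine at the N terminus, was at 69.2, 59.2 and 64.2 CPM in mock and at 102, 89.4 and 78.9 CPM after flg22, without overlap and under the fold threshold. BB, a ubiquitin ligase that limits organ size, rose from 6.87, 6.66 and 9.18 CPM to 11.2, 13.2 and 16.6 CPM, and its adjusted p of 0.0126 became 0.0508 without flg22 replicate 3, 0.0524 without mock replicate 1 and 0.0542 without mock replicate 2. ZPR2 codes for a little zipper protein that the study names as a target of the pathway. It fell from 0.592, 0.438 and 1.09 CPM to 0.202, 0.156 and 0.296 CPM. Its adjusted p of 0.0246 became 0.0717 and 0.0906 without flg22 replicate 1 or 2 and 0.11 without mock replicate 3.

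The contrast in Col-0 compares other libraries, although the spread, and with it the SE and adjusted p, was estimated over all 12, and the difference of the responses was tested as the interaction of genotype and treatment. At an adjusted p under 0.05, 0 of 20439 genes differed in edgeR. Before adjustment, 188 genes (0.92% of those tested) had a p under 0.05, of which 18 were members of the lists, each with an adjusted p of 1. Were no gene to differ, a fraction of about 0.05 of all p-values would lie under 0.05, and the share seen is below that. Members named from these genes are a description, and the edgeR test does not set them apart from chance. DESeq2 also gave 0 genes, and 4 genes with the replicate block, which are LBD41, CBP60G, AT4G24110 and AT5G24240. AT4G24110 and AT5G24240, like WRKY38, PR1 and FMO1 in this comparison, were named after their values were seen. A p above the threshold does not show that the genotypes responded alike.

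CBP60G rose by 4.97 ± 0.25 in a1a2 and by 3.64 in Col-0, a difference of 1.33 (unadjusted p = 0.00106, adjusted p = 1, and adjusted p = 0.0312 in DESeq2 with the replicate block). Its mean was 4.95 CPM in mock and 155 CPM after flg22 in a1a2, against 10.8 and 134 CPM in Col-0. LBD41 rose by 1.69 in a1a2 and by 3.29 in Col-0, a difference of −1.61 (unadjusted p = 0.0336). Here the means were 39.7 and 128 CPM in a1a2 and 3.02 and 29.6 CPM in Col-0, so the smaller fold in a1a2 stood on a higher mock level. AT4G24110, annotated as an NADP-specific glutamate dehydrogenase, showed the same arrangement, with means of 10.7 and 79.3 CPM in a1a2 and 1.39 and 51.2 CPM in Col-0. AT5G24240 was at 0.854 and 1.68 CPM in a1a2 and at 6.04 and 47.7 CPM in Col-0, and its difference of −1.94 in DESeq2 with the replicate block had an adjusted p of 0.0361.

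Among other list members at an unadjusted interaction p under 0.05, WRKY33 rose by 5.63 in a1a2 and 4.90 in Col-0 (unadjusted p = 0.0158), ERF6 by 5.42 and 4.48 (0.00591), and PER4 by 8.38 and 7.07 (0.0446). The rises of JAZ1, STZ, XTH22 and CSLC04, a xyloglucan backbone synthase, were likewise larger in a1a2 at unadjusted p of 0.0452, 0.0402, 0.0233 and 0.0148. Each of these genes that rose, WRKY33, ERF6 and PER4 included, had a lower mock mean in a1a2 than in Col-0, and a higher flg22 mean. Mock means in a1a2 and Col-0 were 21.4 and 29.7 CPM for WRKY33, 27.0 and 37.4 CPM for JAZ1, and 50.4 and 70.4 CPM for CSLC04. Part of the larger folds therefore stood on lower mock levels. ARR14 fell by 1.96 in a1a2 and by 1.32 in Col-0 (unadjusted p = 0.00759). PR1, FMO1 and WRKY38 had lower log2 fold changes in a1a2 than in Col-0, at −1.06 against 0.27, 0.36 against 1.40 and −1.05 against 0.61, with unadjusted p of 0.024, 0.0399 and 0.0222. FMO1 was at 3.08, 2.71 and 2.4 CPM in mock and 3.23, 3.23 and 4.05 CPM after flg22 in a1a2.

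**Figure D5:**
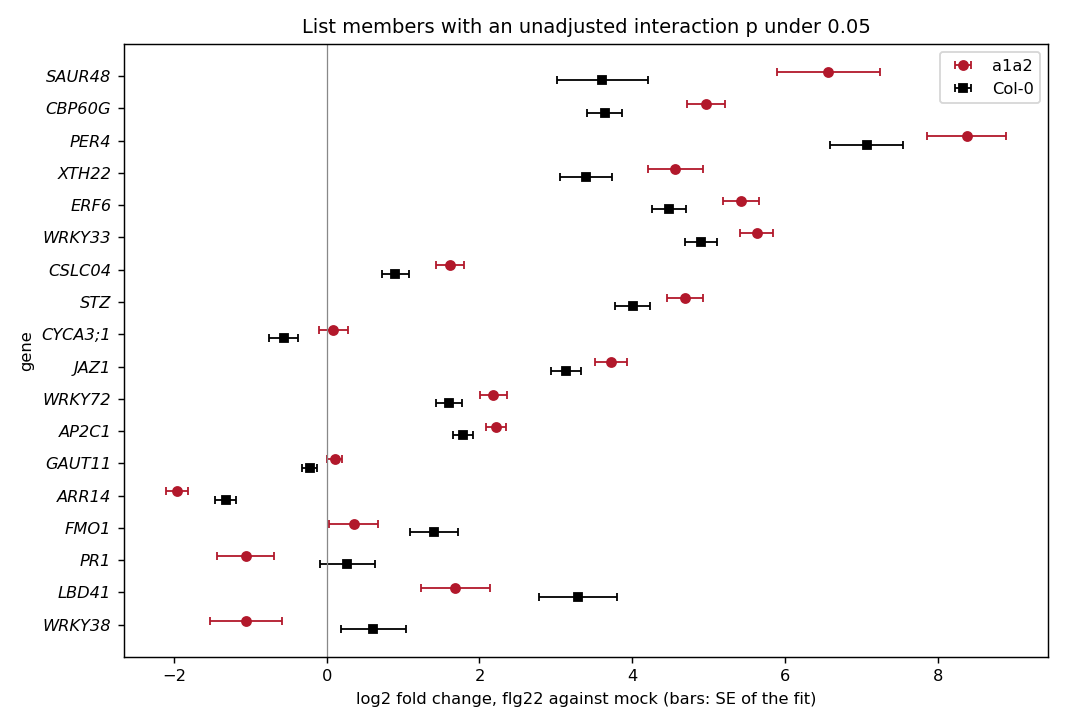
Log2 fold change of flg22 against mock (x axis, bars are the SE of the fit) in a1a2 and in Col-0 for the 18 list members (y axis) with an unadjusted interaction p under 0.05, ordered by the difference. SAUR48 lies at the top and has few counts, and WRKY38, PR1 and FMO1 lie lower in a1a2. No gene shown had an adjusted interaction p under 0.05 in edgeR.

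Markers of separate cell types were also measured. Of 5 mesophyll, 4 endodermis, 5 root hair and 3 root cap and meristem markers, 0 were called in a1a2, with summed levels of 32800 to 43700 CPM in mock and 31900 to 45100 CPM after flg22 for mesophyll. With the replicate block 1 root hair marker was called higher, RSL4, a transcription factor of root hair growth, at 1.3, 1.58 and 1.57 CPM in mock and 2.17, 3.65 and 2.57 CPM after flg22 (log2 fold change 0.91, adjusted p = 0.0706, and 0.0395 with the block). The summed root hair level was 41.3 to 52.3 CPM in mock and 35.3 to 70.7 CPM after flg22. Of 5 guard cell markers, 1 was lower and 0 higher. The marker called was MYB60, which fell from 12.6, 15.3 and 14.6 CPM to 6.40, 9.38 and 8.68 CPM (adjusted p = 0.00105). Mean levels of FAMA and HT1 were 18.2 and 3.11 CPM in mock and 19.3 and 3.34 CPM after flg22. TMM and EPF1 had lower means after flg22 and were not called. The summed guard cell level was 45.4 to 53.7 CPM in mock and 35.7 to 43.3 CPM after flg22. The part of cell composition in the list results was not tested.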

How the data were processed

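PolyA RNA of whole seedlings was sequenced by a commercial provider. According to the study's methods, reads were filtered with SOAPnuke and mapped with HISAT, and DESeq2 was used for differential expression. The submitters' processing notes name the build TAIR10, and the tool that counted reads is not given in the sources used here. The deposited values are expected counts (estimated counts) per gene, not normalized by the authors. In 2661 of 23739 genes some entries were not whole, which were rounded here. The authors' average columns and results were not used. All 23739 loci were named through RefSeq (TAIR10.1).

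The main fit used all 12 libraries in 4 groups, in R 4.3.3 with edgeR 4.0.16 (quasi-likelihood test, TMM scaling). The filterByExpr filter kept 20439 genes. DEGs passed the thresholds of the study, 0.05 for the adjusted p and 1.5-fold for the change. Where a group had at most 3 counts in each library, the bound set the mean CPM of the other group against 3 counts. Those 3 counts were turned into CPM with the shallowest scaled library of the low-count group. Alternatives were other scalings, no filter, a replicate block, the a1a2 libraries alone, DESeq2 1.42.0 and leaving out each library. The fit was tested on simulated data.

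Named genes were both mutated genes, the 8 largest rises and 8 largest falls without overlap and with a mean of at least 1 CPM, all members of lists with up to 12 tested genes, and otherwise the 4 largest rises, 3 largest falls and the 2 members of highest CPM that were not DEGs. Members of these lists that added nothing were left out of the text, as the rule allows. Genes outside that rule are said to be so. The gene families counted within lists were chosen after their values were seen. They are the JAZ, EXO70, EXPA, XTH, CESA, SAUR, PIN, ARF, CKX, PIF, B-type cyclin and MCM genes. An item of the ethylene list is not reported here. Members and lists were chosen with earlier results of these data known. Of the listed names 49 were left out for want of a single match, and 18 entries were removed because the locus was another gene, 1 of them after its values were seen. Replicates with the same number deviated together (correlation 0.523, 0.218 and 0.643 between the mock and flg22 libraries of a1a2, against −0.541 to 0.0545 for other pairs), so the numbers pair the samples. The main fit did not use this pairing, so its SE and adjusted p take in the spread between replicate numbers. The replicate block, which does use it, was kept as an alternative. The labels do not say what a number shares. Where replicates share a culture, p-values measure only the spread between these samples. Depth was 20285670 to 22433556 counts per library, and intervals from counts would cover counting error only. Levels are not corrected for gene length, and reads of near-identical genes may have been split or lost in counting.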

Additional observations from a re-analysis of the deposited data

How the results depend on the processing

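Higher DEGs numbered 2413 to 2884 and lower DEGs 1198 to 1540 when each library was left out, beside 2835 and 1491 with all libraries. With library size alone the lower DEGs were 3337. The replicate block gave 3159 higher and 1915 lower DEGs and no adjusted difference between genotypes, with 431 genes at an unadjusted p under 0.05, and of 170 genes followed through the settings it changed the calls of FRK1, PR1 and RSL4 alone. DESeq2 with the replicate block gave 4 genes whose response differed, and every other setting, with each library left out, gave 0. Of 143 called genes named here, 0 changed sign under any setting and 18 lost the call in at least 1, 11 of them with a library left out. RBOHB was −0.03, ADH1 −0.25, RAP2.12 −0.17 and TUA1 −0.04 with library size alone, and ADH1 was −0.02 with the 6 a1a2 libraries alone. With each library left out, log2 fold changes ran from −0.81 to 0.74 for ADH1, −0.05 to 0.21 for RAP2.12 and −0.14 to 0.07 for RBCS1A, none of them called. The cause of these changes was not tested. ACS7, CML38 and PME41 had adjusted p of 0.0887, 0.0566 and 0.057 in the fit of the 6 a1a2 libraries with the replicate block, which has few residual degrees of freedom. UBC9 fell under the fold threshold, at 0.52, with library size alone. There were 3 libraries per treatment and 1 time point.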

Other observations

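Some genes that feed the indolic compounds rose. Of 11 tryptophan and shikimate genes, 3 were higher and 1 lower, with a median log2 fold change of 0.09, and 0 were lower without flg22 replicate 1 or 3 or mock replicate 2. ASA1 and ASB1, the subunits of anthranilate synthase, rose from 43.2, 42.9 and 35.2 CPM to 179, 152 and 92.3 CPM, and from 33.4, 35.3 and 37.3 CPM to 159.8, 174 and 126 CPM. TSB1, the main tryptophan synthase beta subunit, rose from 202, 206 and 128 CPM to 917, 813 and 456 CPM, and replicate 3 was the lowest library after flg22 in all 3 genes. PAI3, a phosphoribosylanthranilate isomerase with near-identical copies, was the member called lower, from 3.83, 4.2 and 3.85 CPM to 2.07, 3.18 and 2.1 CPM (adjusted p = 0.0285), and its adjusted p was 0.0888 and 0.0933 without flg22 replicate 1 or 3 and 0.0848 and 0.0595 without mock replicate 2 or 3. Of 19 phenylpropanoid genes, 3 (15.8%) were higher and 1 (5.26%) lower, beside 13.9% and 7.29% of all tested genes. Their median was −0.16, and 5 were lower with the replicate block, beside 1915 of all tested genes under that setting. Without mock replicate 1, 1 was higher, and without replicate 1 or 2 of flg22 or 2 or 3 of mock, 0 were lower. 4CL5, a 4-coumarate:CoA ligase, rose from 10.4, 12.6 and 15.2 CPM to 30.6, 45.1 and 41.3 CPM.

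Of 25 nutrient uptake genes, 3 (12%) were higher and 1 (4%) lower, with a median of 0.22. These shares do not exceed the 13.9% and 7.29% of all tested genes. With the replicate block 5 were higher, beside 3159 of all tested genes. AMT1;1, an ammonium transporter, rose from 76.2, 47.9 and 58.3 CPM to 404, 375 and 305 CPM, a log2 fold change of 2.57 ± 0.20 (adjusted p = 1.6e-06). NIA2, the main nitrate reductase, rose from 1226, 1388 and 1404 CPM to 2675, 2642 and 2251 CPM, and AKT1, a root potassium channel, rose by 1.1 in log2. SPX1, a sensor of phosphate status that is itself induced by phosphate starvation, fell from 37.7, 72.3 and 35.3 CPM to 11.6, 20.1 and 15.4 CPM. Of 29 aquaporin genes 1 was higher and 0 lower. With library size alone 8 were lower, beside 3337 of all tested genes. With the replicate block 2 were higher and 2 lower, beside 3159 and 1915 of all tested genes. Without flg22 replicate 2, 2 were higher, and without mock replicate 3, 1 was lower. SIP1;2, a small intracellular aquaporin, was the gene that rose, from 7.38, 7.97 and 6.17 CPM to 43.6, 38.9 and 22.8 CPM.

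Genes often used as references were not all steady under flg22. Of 12, 2 (16.7%) were higher and 0 lower, beside 13.9% and 7.29% of all tested genes. UBQ10 rose from 1165, 1244 and 953 CPM to 2514, 2458 and 1948 CPM, a log2 fold change of 1.04 ± 0.17 (adjusted p = 0.000647), and UBC9 from 97.2, 93.0 and 96.5 CPM to 164, 167 and 158 CPM. ACT2 was at 556, 495 and 548 CPM in mock and at 709, 689 and 671 CPM after flg22, under the fold threshold. MON1, the reference gene of the study's RT-qPCR, was also among the 10 not called. It stood at 41.4, 38.0 and 35.7 CPM in mock and at 39.5, 40.8 and 37.3 CPM after flg22. The 2 seed storage markers tested summed to 0.521 to 10.4 CPM over the a1a2 libraries. Of the pollen markers only TUA1, an alpha tubulin gene, was tested, at 34.9, 31.7 and 33.6 CPM in mock and 43.9, 36.8 and 35.2 CPM after flg22, and none of these markers was called.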
